A study of Mus musculus with 5 samples.

Results

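Glucocorticoid action was followed through 10 genes, listed by name as targets or carriers of it, over 5 arrays of mouse gut, and 9 of them could be read. They were Fkbp5, Tsc22d3, Sgk1, Zbtb16, Ddit4, Dusp1, Klf9, Sult1e1 and the receptor gene Nr3c1, out of 19938 genes with a probe set naming 1 gene. Each of the 9 had a single such probe set. The remaining gene, Cdkn1a, shares its probe set with another gene and is not analysed here. The median level over all genes was 7.41 (log2), and 8 of the 9 genes had a mean above it. Sult1e1 lay far below it, between 3.15 and 3.28, under the 4.88 to 4.91 of Xist, a gene silent in males. Its values may therefore not be above background.

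Male ddY mice, an outbred stock, were 5 weeks old and received 2 oral administrations 0.5 hours apart, and the gut was taken 4 hours after the second. The groups were LG21+Asp, Tep+Asp, GA+Asp, LG21+GA and the control GA+GA, where LG21 is the strain Lactobacillus gasseri OLL2716, Tep the mucosal protective drug teprenone, Asp aspirin and GA the gum arabic vehicle that both doses of the control consisted of. RNA was extracted from a part of the collected gut, and there was 1 array a group. The sources used here state neither doses nor the time of day, nor whether an array holds 1 mouse or a pool. The gastric markers had median levels of 13.29 to 13.32 on the 5 arrays, whereas a list of 8 intestinal epithelial markers, added after the data were seen, had medians of 6.80 to 7.14. Of the latter, Vil1, Cdx1 and Lct lay above the median level of all genes on every array, at 8.12 to 8.20, 7.60 to 7.70 and 7.45 to 7.57, and the sucrase gene Sis was the lowest, at 4.65 to 4.97.

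Glucocorticoids are adrenal steroids released in a daily rhythm and in response to stress. They bind the receptor encoded by Nr3c1, which is held by chaperones in the cytoplasm, moves to the nucleus and activates genes near its response elements. Fkbp5 encodes a co-chaperone that lowers the receptor's affinity for hormone and is itself induced by it. Tsc22d3 encodes the anti-inflammatory leucine zipper protein GILZ, and Dusp1 a phosphatase that switches off stress kinases. Sgk1 encodes a kinase that promotes epithelial sodium uptake, and Ddit4 the inhibitor of mTORC1 known as REDD1. Zbtb16 and Klf9 encode zinc finger transcription factors, and Sult1e1 a sulfotransferase that inactivates estrogens.

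Promoter windows from RefSeq (GRCm38.p6) reached from 250 bases before to 50 after a start site. Those of 8 of the 10 listed genes were searched, 16 windows in all. No window was held for Zbtb16, and Nr3c1 was left out of the search. The window of 1 of the 6 Sgk1 start sites held the glucocorticoid response element, searched as the arms GNACA and TGTNC with 3 bases between them. This motif reads the same on both strands and was found in 0.475% of 32851 windows of 300 bases. The shorter motif AGAACA, searched on both strands like those that follow, overlaps it there and was found in 19.0% of windows. AGAACA also occurred in other Sgk1 windows, at -195 and -13 from the start site, and in a Tsc22d3 window at -185. The E-box CACGTG, a site of clock factors, occurred in windows of Sgk1, Dusp1 and Fkbp5 and in 7.15% of all windows, and the cAMP response element TGACGTCA in that of Dusp1 and in 1.79%. The D-box TTANGTAA occurred in 2.32% of windows and in none of the 16. Such a match is a description of letters, not a site of binding. The stretches are shown because they put the hormone's own motif beside the clock and cAMP motifs within this gene set. Capitals mark the response element in Sgk1 (chr10:21993640-21993759, plus strand), the cAMP element and E-box in Dusp1 (chr17:26508573-26508672, minus strand) and the E-box in Fkbp5 (chr17:28486250-28486349, minus strand).
Sgk1: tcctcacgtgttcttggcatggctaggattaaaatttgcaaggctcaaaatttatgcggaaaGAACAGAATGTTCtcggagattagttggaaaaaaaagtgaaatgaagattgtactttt
Dusp1: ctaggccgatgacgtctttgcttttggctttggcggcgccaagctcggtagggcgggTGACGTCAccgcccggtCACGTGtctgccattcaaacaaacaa
Fkbp5: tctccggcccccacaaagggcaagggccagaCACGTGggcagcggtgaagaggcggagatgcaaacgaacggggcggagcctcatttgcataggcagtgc

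The 5 arrays resembled each other closely, with Pearson's r over all probe sets from 0.992 to 0.997 and array medians from 6.94 to 6.98. Ties were common: 63.4% of probe sets had the same value on at least a pair of arrays. Of 15 hepatocyte markers, 13 had a wider range over the arrays than any of the 9 genes. The exceptions were Apoa1, at 0.06, and Ttr, at 0.41. The summed level of the 15 (on the linear scale) was 16320 in LG21+Asp, 11780 in Tep+Asp, 10300 in GA+Asp, 21000 in LG21+GA and 26360 in GA+GA. Summed keratinocyte markers were 8655, 17250, 12120, 12280 and 13200 in the same order, and skeletal muscle markers stood at 2223 in GA+Asp against 1762 to 1785 in the other arrays. By array in the same order, Alb (albumin) stood at 11.80, 10.41, 7.43, 12.37 and 12.69, Krt4 (a squamous keratin) at 6.87, 9.09, 8.95, 8.36 and 8.88, and Acta1 (skeletal actin) at 7.90, 7.93, 8.74, 7.85 and 7.94. Such sums weight high genes. Apoa1 and Ttr, and Sprr1a (12.22 to 12.60) among keratinocyte markers, were high and varied less than most of their lists. The median difference of the hepatocyte markers was -3.11 in GA+Asp against GA+GA. That of the keratinocyte markers was -1.03 in LG21+Asp against GA+GA. The hepatocyte, keratinocyte and skeletal muscle lists held 15, 15 and 13 measured genes, and their part in the values below was not tested. In such bulk tissue, fewer cells of a type and less RNA per cell cannot be told apart.

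The receptor gene varied little, and the gene of its co-chaperone Fkbp5 varied more. Nr3c1 stood at 9.09 in LG21+Asp, 9.17 in Tep+Asp, 9.18 in GA+Asp, 9.08 in LG21+GA and 9.11 in GA+GA. Both LG21 arrays were the low ones, and the aspirin arrays overlapped the other arrays. Its range of 0.10 was reached by 44.2% of genes above the median level. Fkbp5 stood at 9.54 in LG21+Asp, 9.57 in Tep+Asp, 9.66 in GA+Asp, 9.54 in LG21+GA and 9.50 in GA+GA. GA+Asp was the high array and GA+GA the low one, a difference of 0.16 or 1.12-fold, and LG21+Asp overlapped the arrays without aspirin by a narrow margin. Of the genes above the median level, 19.6% had a range at least as wide as that of Fkbp5. In GA+Asp against GA+GA 6.4% lay at least as far apart.

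Tsc22d3 and Ddit4 had profiles of the same shape. Tsc22d3 stood at 9.24 in LG21+Asp, 9.32 in Tep+Asp, 9.43 in GA+Asp, 9.31 in LG21+GA and 9.19 in GA+GA. Ddit4 stood at 8.63 in LG21+Asp, 8.69 in Tep+Asp, 8.84 in GA+Asp, 8.69 in LG21+GA and 8.61 in GA+GA. In both genes GA+Asp was highest and GA+GA lowest, LG21+Asp lay next to the control, and aspirin arrays overlapped the others. The differences of GA+Asp from GA+GA were 0.24 for Tsc22d3, 1.18-fold, and 0.23 for Ddit4, 1.17-fold. Of the genes above the median level, 2.45% and 2.64% lay at least as far apart in that pair.

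Dusp1 and Sgk1 are both induced quickly by hormone or stress in many cells. Dusp1 stood at 9.76 in LG21+Asp, 10.01 in Tep+Asp, 9.91 in GA+Asp, 9.87 in LG21+GA and 9.98 in GA+GA. It was the one gene highest in Tep+Asp and lowest in LG21+Asp, which were 1.19-fold apart, and GA+GA lay next below Tep+Asp, so aspirin arrays and the others overlapped. Sgk1 stood at 10.95 in LG21+Asp, 10.96 in Tep+Asp, 11.00 in GA+Asp, 10.97 in LG21+GA and 10.92 in GA+GA. Its range of 0.08, 1.06-fold, was the smallest of the 9, and 53.5% of genes above the median level varied as much or more. Aspirin arrays and the others overlapped here too.

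Zbtb16 and Klf9 were the 2 genes in which all 3 aspirin arrays lay above both arrays without aspirin. Zbtb16 stood at 9.10 in LG21+Asp, 8.98 in Tep+Asp, 9.00 in GA+Asp, 8.83 in LG21+GA and 8.60 in GA+GA. Its range of 0.498, 1.41-fold, was the widest of the 9, and 1.45% of genes above the median level had one as wide. Klf9 stood at 10.25 in LG21+Asp, 10.27 in Tep+Asp, 10.31 in GA+Asp, 10.15 in LG21+GA and 10.14 in GA+GA. Its aspirin arrays were tightly grouped and its other arrays nearly equal. Such a separation was seen in 5.45% of all genes, and in 8.68% of genes above the median level. After quantile normalization or cyclic loess Fkbp5 joined them, making 3 of the 9, with 11.3% or 8.61% of genes above the median level. With each array centred on its median the count was 2 of the 9 and the share 15.1%. Sult1e1 stood at 3.28 in LG21+Asp, 3.25 in Tep+Asp, 3.27 in GA+Asp, 3.15 in LG21+GA and 3.27 in GA+GA, and no fold is given for it. LG21+GA was its low array and the others were nearly equal.

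**Figure D1:**
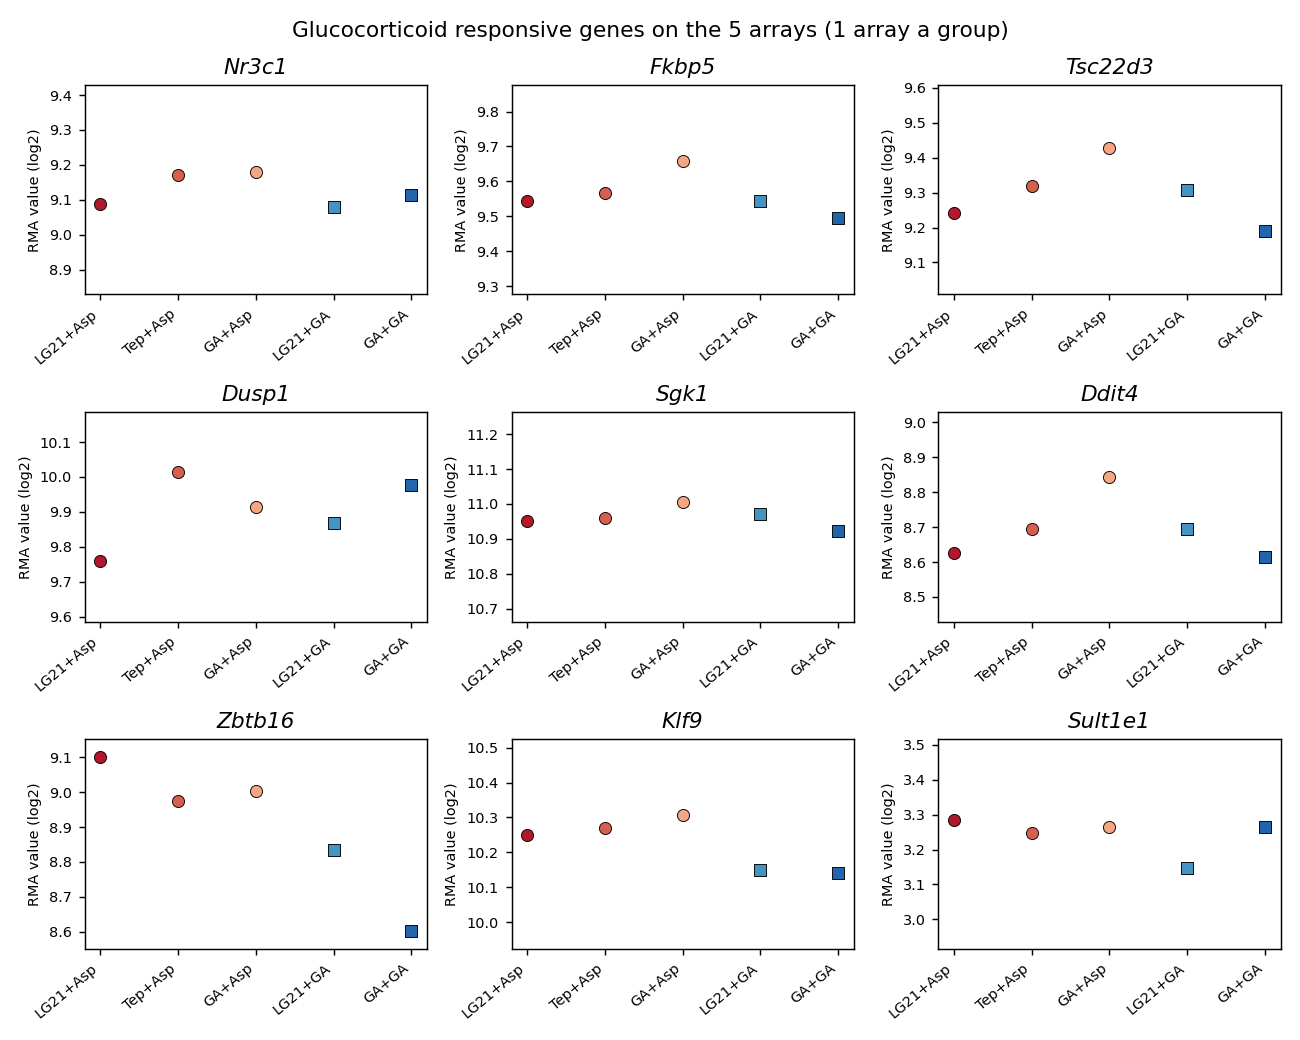
RMA values (log2) of the 9 genes, 1 panel a gene, with 1 point for each of the 5 arrays; circles are aspirin arrays and squares arrays without aspirin, and every panel spans the same 0.6 on the log2 scale. Zbtb16 and Klf9 show all 3 circles above both squares, Tsc22d3 and Ddit4 peak in GA+Asp, and Sgk1 is nearly flat.

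Aspirin alone, GA+Asp against GA+GA, asks what the drug goes with in gut whose pretreatment was the vehicle. Most of the glucocorticoid responsive genes were higher in GA+Asp, by small amounts. The difference was above 0 for 7 of the 9 genes, exactly 0 for Sult1e1 and -0.06 for Dusp1, with a median of 0.16. The background leans the same way: 42.4% of all genes were above 0 and 31.4% below, as were 58.3% and 23.5% of genes above the median level, whose median was 0.01. Centring each array on its median moved the share above 0 among those genes to 82.1% and cyclic loess moved it to 46.4%, with 8 and 7 of the 9 genes above 0. None of the 9 was at least 1.5-fold higher or lower, as were 0.0602% and 0.853% of all genes. Zbtb16, at 0.40 or 1.32-fold, was the single one at least 0.32 higher on the log2 scale, where 0.517% of all genes were. With 1 array a group there is no replicate check on this or the other pairs.

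Counted over the 5 arrays, GA+Asp was strictly highest in 6 of the 9 genes (Fkbp5, Tsc22d3, Sgk1, Ddit4, Klf9 and Nr3c1) and GA+GA strictly lowest in 6 (Fkbp5, Tsc22d3, Sgk1, Zbtb16, Ddit4 and Klf9). GA+Asp was strictly highest in 21.7% of all genes and 33.6% of genes above the median level. GA+GA was strictly lowest in 20.6% and 26.3%. After cyclic loess GA+Asp was strictly highest in 5 of the 9, without Nr3c1, and in 24.9% of genes above the median level. After quantile normalization it was so in 5 as well, without Nr3c1 and Sgk1 but with Sult1e1, and in 24.0%. With each array centred on its median the 6 genes stood beside 51.2%. The same 6 genes were lowest in GA+GA after quantile normalization, cyclic loess and median centring. The share of genes above the median level was 23.8%, 22.2% and 40.3% in these. Averaging probe sets could not change the 6, as each has a single one.

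LG21 alone, LG21+GA against GA+GA, asks what the strain goes with in the absence of aspirin. Zbtb16 led again, at 0.23 or 1.17-fold, followed by Tsc22d3 at 0.12 and Ddit4 at 0.08. Dusp1 was at -0.11 and Nr3c1 at -0.04. In all 6 of the 9 genes were above 0 and 3 below, with a median of 0.05, against 38.8% of all genes and 46.4% of genes above the median level above 0. With median centring that last share was 71.7%, beside the same count of 6. None was 1.5-fold higher or lower, as were 0.0652% and 0.492% of all genes. This pair shares the GA+GA array with aspirin alone.

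Against the same control, the pretreated aspirin arrays gave their own values. Tep+Asp was above GA+GA in 8 of the 9 genes (37.8% of all genes, 46.2% of genes above the median level), with Zbtb16 at 0.37, Tsc22d3 and Klf9 both at 0.13 and a median of 0.07. LG21+Asp was above GA+GA in 7 of the 9 (44.3% and 41.7%), with Zbtb16 at 0.50, Klf9 at 0.11, Dusp1 at -0.22 and a median of 0.03. These backgrounds depend on the scaling. With median centring 69.1% of genes above the median level were above 0 in the Tep+Asp pair and 64.3% in the LG21+Asp pair, with the same counts of 8 and 7. After quantile normalization 66.1% were above 0 in the LG21+Asp pair, with 6 of the 9. Zbtb16 was the single gene at least 0.32 higher in each pair, where 0.702% and 0.351% of all genes were. None of the 9 was 1.5-fold higher or lower. In Tep+Asp 0.181% and 0.757% of all genes were, and in LG21+Asp 0.015% and 0.858%.

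**Figure D2:**
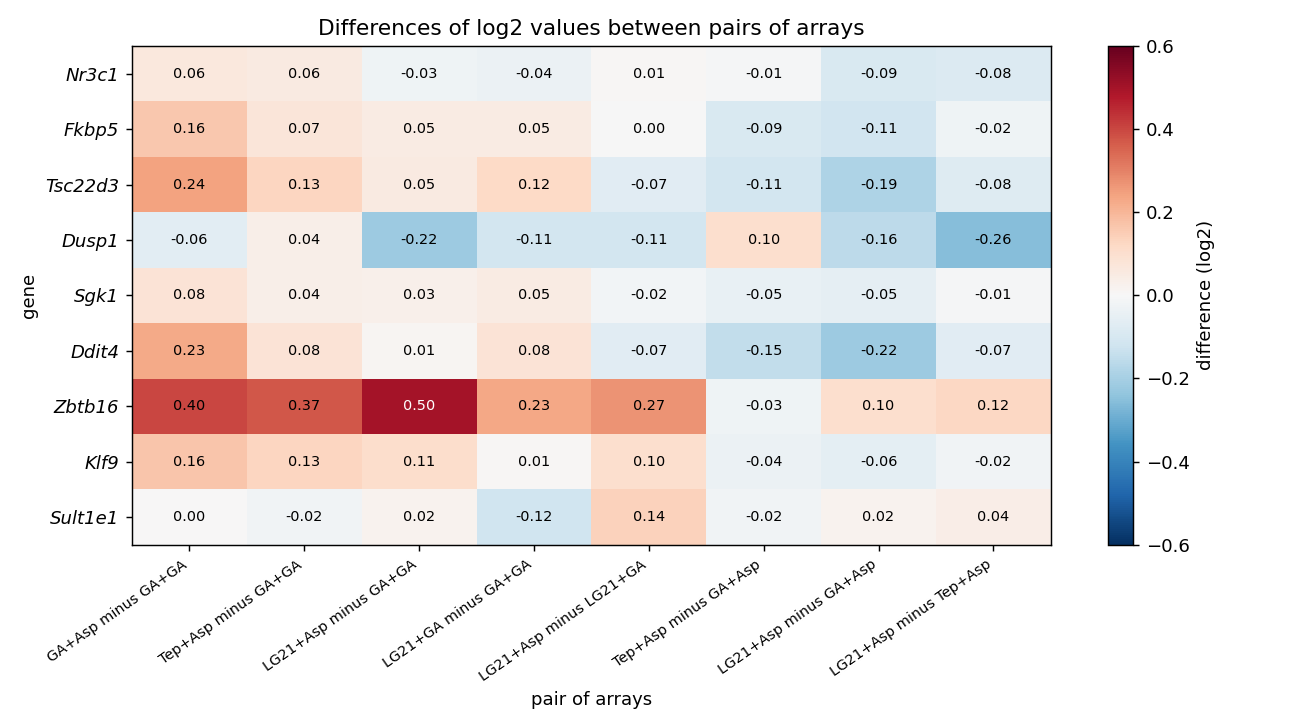
Differences of log2 values for the 9 genes (rows) in 8 pairs of arrays (columns), with red for values above 0 and blue for values below. The row of Zbtb16 holds the values of 0.37 to 0.50 in the 3 aspirin arrays set against GA+GA, and the columns set against GA+Asp are mostly blue.

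Setting Tep+Asp and LG21+Asp against GA+Asp asks how the profile under aspirin differed after each pretreatment. In Tep+Asp 8 of the 9 genes lay below GA+Asp, by at most 0.15 (Ddit4), and Dusp1 lay above it by 0.10. Of all genes 39.0% were below 0, and 51.8% of genes above the median level. Nr3c1, at -0.01, turned to 0.01 after quantile normalization or cyclic loess, where 50% and 56.2% of genes above the median level were above 0 against 28.9% in the deposited values. The median was -0.04, and -0.02 after either, and 0 of the 9 were 1.5-fold higher or lower, as were 0.321% and 0.0802% of all genes.

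In LG21+Asp 7 of the 9 genes lay below GA+Asp, with a median of -0.09, or -0.05 after quantile normalization. Ddit4 was at -0.22, Tsc22d3 at -0.19, Dusp1 at -0.16 and Fkbp5 at -0.11, whereas Zbtb16 was at 0.10. Here 38.1% of all genes and 58.2% of genes above the median level were below 0. After quantile normalization 57.3% of the genes above the median level were instead above 0, while 8 of the 9 genes were below it. After cyclic loess 51.7% were above 0, with 7 of the 9 below. None of the 9 was 1.5-fold higher or lower, against 0.316% and 0.266% of all genes. GA+Asp enters both of these pairs and aspirin alone with opposite signs, and the genes highest in that array must lie lower in the others.

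The pretreatments were set side by side as LG21+Asp against Tep+Asp. Here 7 of the 9 genes were below 0, against 33.6% of all genes and 47.4% of genes above the median level. The background direction turned with the scaling: 30.9% of genes above the median level were above 0 in the deposited values, but 63.3% after quantile normalization, 57.1% with median centring and 53.9% after cyclic loess. The 9 genes had 8, 7 and 7 below 0 in these. Dusp1 stood furthest below, 9.76 in LG21+Asp and 10.01 in Tep+Asp, and 1.46% of genes above the median level lay as far apart. Nr3c1 and Tsc22d3 were both at -0.08, while Zbtb16 was at 0.12. None was 1.5-fold higher or lower, as were 0.176% and 0.381% of all genes.

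Within the LG21 groups, aspirin can be followed in a pair of arrays (LG21+Asp and LG21+GA) that does not overlap the vehicle pair. Zbtb16 was again above 0, at 0.27 or 1.20-fold and Klf9 at 0.10, which their position in all 3 aspirin arrays already fixes. With Nr3c1, 3 of the 9 were above 0 in both pairs, as were 16.4% of all genes and 20.9% of genes above the median level. Tsc22d3 and Ddit4, which led after Zbtb16 with aspirin alone, were both at -0.07, and Dusp1 was at -0.11. Fkbp5 was at -0.00 and Sgk1 at -0.02. Of the 9, 4 were above 0 and 5 below, where 39.2% of all genes were above 0 and 33.6% below, and 33.9% and 44.6% of genes above the median level. The median was -0.00. After quantile normalization or cyclic loess 5 were above 0 and 4 below, with medians of 0.02 and 0.01, and 62.5% and 54.9% of genes above the median level were above 0. None was 1.5-fold higher or lower, as were 0.0201% and 0.481% of all genes.

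The 3 aspirin arrays were also tested against the 2 arrays without aspirin, the one contrast with more than 1 array on each side. The arrays of a side differ in pretreatment, so the spread includes any effect of LG21 or teprenone. Zbtb16 averaged 9.03 ± 0.07 (SD, n = 3) in aspirin arrays and 8.72 ± 0.16 (SD, n = 2) in the others. The difference was 0.31 with a limma standard error of 0.09 and an interval of 0.05 to 0.57 (95%, not adjusted for the number of genes). Without the GA+GA array it was 0.19, and without LG21+GA 0.42. Klf9 averaged 10.28 ± 0.03 (SD, n = 3) in aspirin arrays and 10.15 ± 0.01 (SD, n = 2) in the others, a difference of 0.13 with a standard error of 0.02. The other 7 genes had intervals that included 0, from -0.03 for Dusp1 to 0.08 for Tsc22d3.

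None of the 9 passed limma after Benjamini-Hochberg adjustment over 19938 genes, with an adjusted p of 0.833 for 8 of them and 0.982 for Dusp1. The limma test called 0 genes in all (0.0% of those tested), with 581 at an unadjusted p under 0.05. Unadjusted limma p-values were 0.00424 for Klf9 and 0.031 for Zbtb16, the 2 of the 9 on the higher side under that threshold, where 1.6% of all genes were. With terms for LG21 and teprenone in the limma fit the unadjusted p was 0.0588 for Klf9, no longer under 0.05, and 0.0395 for Zbtb16, with an adjusted p of 0.77 for both. An exact permutation test (two-sided) gave 0.2 for each, which is the smallest value its 10 splits allow. That test therefore cannot reach 0.05 for a single gene with these arrays. Over the same arrays 13 of the 15 hepatocyte markers were lower in all 3 aspirin arrays than in either of the others. That held for 3.45% of all genes and 3.8% of genes above the median level, and the part of these markers was not tested.

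**Figure D3:**
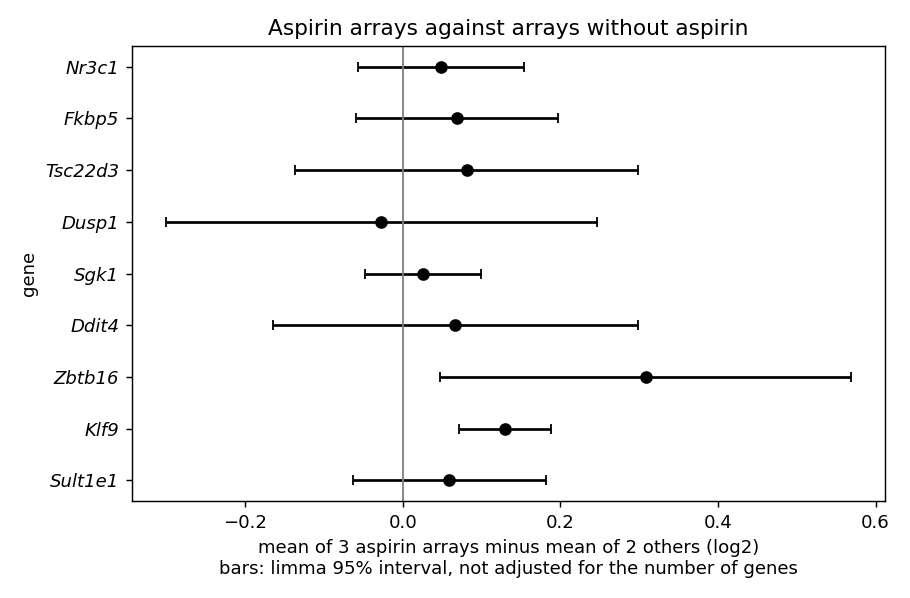
Mean of the 3 aspirin arrays minus mean of the 2 arrays without aspirin (log2) for the 9 genes, with limma's 95% intervals, which are not adjusted for the number of genes. The intervals of Zbtb16 (0.05 to 0.57) and Klf9 (0.07 to 0.19) lie above 0, and no gene passed after adjustment.

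A wider list of 28 further glucocorticoid targets was spread about 0. With aspirin alone 13 were above 0, 10 below and 5 exactly equal, with a median of 0.00. These counts lie near the shares of all genes in that pair, 42.4% above 0, 31.4% below and 26.2% equal. Among genes above the median level 58.3% were above 0 and 23.5% below. The transcription repressor gene Bcl6 was at 0.32, the decoy receptor gene Il1r2 at 0.28 and Per1, a clock gene with a response element of its own, at 0.26. The far values belonged to genes typical of liver. Tat, a tyrosine aminotransferase, stood at 7.99 in LG21+Asp, 7.15 in Tep+Asp, 6.64 in GA+Asp, 8.68 in LG21+GA and 9.30 in GA+GA. Pck1, the gluconeogenic enzyme, stood at 7.61, 7.42, 7.09, 7.93 and 8.57 in the same order. Both ranked the arrays as the summed hepatocyte markers did. Without them the median of the list was 0.01. No gene of the list passed limma after adjustment in the aspirin contrast. In it Bcl6, Pdk4, a kinase that restrains glucose oxidation, and the insulin signalling gene Irs2 were the 3 of 28 with all aspirin arrays above both others, a share near the 8.68% of genes above the median level.

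The measured part of the machinery around the receptor differed little between arrays. Among 11 measured genes of the receptor, its chaperones and cofactors, the differences with aspirin alone were above 0 for 4, below for 3 and exactly 0 for 4. The shares of all genes in that pair were 42.4%, 31.4% and 26.2%, and 58.3%, 23.5% and 18.2% of genes above the median level. Hsp90ab1 and Ncor1, also on that list, were not measured. The chaperone gene Hsp90aa1 stood at 11.33 in LG21+Asp, 11.37 in Tep+Asp, 11.33 in GA+Asp, 11.26 in LG21+GA and 11.33 in GA+GA. In LG21+GA against GA+GA 7 of the 11 were below 0 and 4 equal, with a median of -0.02. Of all genes 29.8% were below 0 in that pair, and 32.3% of genes above the median level.

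Of 9 measured genes of corticosteroid synthesis and metabolism, 1 was at least 1.5-fold lower with aspirin alone and 0 were higher by as much. Of all genes 0.853% were 1.5-fold lower and 0.0602% higher in that pair. Hsd11b1, whose enzyme regenerates active hormone inside cells, stood at 6.95 in LG21+Asp, 7.02 in Tep+Asp, 6.45 in GA+Asp, 7.04 in LG21+GA and 7.52 in GA+GA. GA+GA was its high array and GA+Asp its low one. The summed hepatocyte markers had the same high and low arrays but were higher in LG21+Asp than in Tep+Asp, unlike Hsd11b1, and their part was not tested. The adrenal-type enzyme genes Cyp11a1, at 5.61 to 5.80, and Cyp11b1, at 5.42 to 5.57, lay below the median level of all genes on every array. Among 7 genes of epithelial sodium transport, the pathway Sgk1 acts on, the sodium-proton exchanger gene Slc9a3 was 0.76 lower in LG21+GA than in GA+GA and the other 6 differed by at most 0.10 in that pair.

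Clock genes stand beside these because glucocorticoid release is rhythmic and entrains peripheral clocks. With aspirin alone 13 of 16 were above 0, with a median of 0.30, led by Bhlhe41 at 0.59, Dbp at 0.56 and Ciart at 0.45, all repressor or output genes of the clock. In that pair 42.4% of all genes and 58.3% of genes above the median level were above 0, the latter 82.1% with median centring. In 9 of the 16, all 3 aspirin arrays lay above both others, against 8.68% of genes above the median level. The output gene Dbp stood at 9.09 in LG21+Asp, 9.21 in Tep+Asp, 9.24 in GA+Asp, 8.79 in LG21+GA and 8.68 in GA+GA. Per1, on both lists, stood at 8.82, 8.91, 8.87, 8.82 and 8.61 in the same order. The activator gene Arntl, which peaks in the opposite phase, was lowest in Tep+Asp at 7.61 and highest in GA+GA at 7.95. GA+GA was strictly lowest in 11 of the 16 clock genes, as it was in 6 of the 9 glucocorticoid responsive genes. It was so in 20.6% of all genes and 26.3% of genes above the median level, the latter 40.3% with median centring. No clock gene passed limma after adjustment, and the part of time of day or handling in these values was not tested.

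Immediate early genes, which respond rapidly to handling and other stimuli, were more often below 0 than above it with aspirin alone. Of 18 such genes, 5 were above 0 with aspirin alone, 9 below and 4 equal, with a median of -0.00. Above 0 in that pair were 42.4% of all genes and 58.3% of genes above the median level. Below 0 were 31.4% and 23.5%. All 3 aspirin arrays lay below both others in 5 of the 18 and above both in 1. Those shares were 3.8% and 8.68% of genes above the median level. In LG21+GA against GA+GA 12 were above 0, led by Ier3 at 0.28 and Klf4 at 0.23. The share above 0 was 38.8% of all genes and 46.4% of genes above the median level, the latter 71.7% with median centring. Dusp1, which belongs to this response as well, was at -0.11 in that pair. LG21+GA was strictly highest in 8 of the 18, against 13.7% of all genes and 15.5% of genes above the median level.

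**Figure D4:**
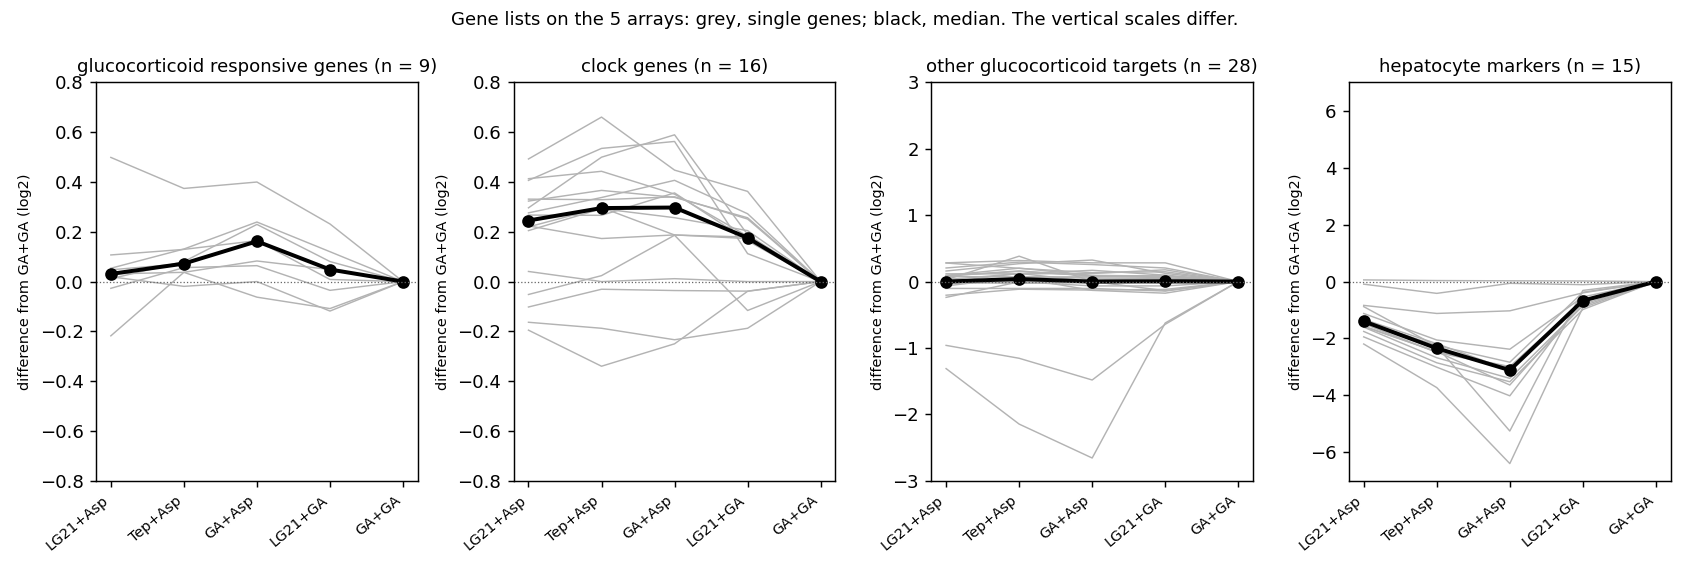
Differences from GA+GA (log2) on each array for the 9 genes, 16 clock genes, 28 other glucocorticoid targets and 15 hepatocyte markers, with grey lines for single genes, black for the median and vertical scales that differ between panels. Lines join values of 1 gene and imply no order of arrays. The medians in GA+Asp were 0.16, 0.30, 0.00 and -3.11, and Tat and Pck1 are the low pair among the other targets.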

How the data were processed

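The deposited log2 values, 1 per probe set and array, are RMA expression values from Expression Console, per the labels' descriptions; the series' design text names the Exon Array Computational Tool. The log2 scale was read from the values (1.32 to 13.87). No source used here names the software version or a build. Depth does not apply to arrays; their number limits the precision.

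Probe sets naming 1 gene in the platform annotation (21789 of 35557, with 1621 naming several and 12147 none) gave 19938 genes, each by the probe set with the highest mean. All 9 genes matched the RefSeq table (GRCm38.p6) by identifier. For 8 pairs of arrays one log2 value was subtracted from the other. limma 3.58.1 (R 4.3.3) compared 3 aspirin arrays with 2 others over all genes. Exact permutation tests used SciPy 1.17.1. The limma step was tested on simulated data.

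The genes and lists were chosen with earlier results of these data known. From each list the up to 4 genes furthest apart in the comparison described were to be named; others were chosen after their values were seen. Genes of like profile were to be named for any of the 9 whose range reached 0.5; 0 did. Alternatives were the mean of probe sets, quantile normalization, cyclic loess (3 iterations), array median centring, filters and other thresholds.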

Additional observations from a re-analysis of the deposited data

Results flagged for a closer look

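In 4 of the 9 genes the difference with aspirin ran in opposite directions in LG21-treated and GA-treated gut, which is why they are given here. Opposite directions in these pairs were seen in 28.7% of all genes and 32.5% of genes above the median level. The LG21 by aspirin interaction was -0.31 for Tsc22d3, from -0.07 in LG21-treated and 0.24 in GA-treated gut, and 2.44% of genes above the median level had one as large. It was -0.30 for Ddit4 (-0.07 and 0.23), with 2.6% as large. It was -0.16 for Fkbp5 (-0.00 and 0.16), with 11.1% as large, and the small LG21 value turned above 0 after quantile normalization or cyclic loess. It was -0.10 for Sgk1 (-0.02 and 0.08), with 26.9% as large. With 1 array in each group none of these differences was tested.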

How the results depend on the processing

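Over 6 pairs of arrays, 216 recomputed differences of the 9 genes changed sign in 6 cases, each smaller than 0.04 in the deposited values. The 216 include means of probe sets, which could not differ because each of the 9 genes has a single probe set. In 5 cases, 3 of them Klf9, a difference moved by more than the residual SD. Median differences of the 9 genes moved by less than the residual spread, though some by over 1.5 times. At a threshold of 0.32 on the log2 scale 1 member difference passed in place of 0 at 1.5-fold, and at 2-fold still 0. Summed over the 6 pairs, 700 gene differences reached 1.5-fold, 301 reached 2-fold and 2004 reached 0.32. At 1.5-fold, genes above the median level gave 284 and those above the 75th percentile 95. In the aspirin contrast, leaving out 1 array in turn gave between 0 and 740 genes past the adjusted threshold. The 740 came without LG21+GA and 492 without GA+GA, where 1 array is left on that side and assumed to vary like the others. Of these, 509 and 373 had exactly equal values on the 3 aspirin arrays, and 0 of the 9 genes were among them. Without LG21+GA or GA+GA, Zbtb16 was at 0.42 or 0.19. Dusp1, at -0.03, changed sign without GA+GA (0.03) or LG21+Asp (0.04), over a range of -0.086 to 0.0415. The smallest adjusted limma p over 12 alternatives was 0.184 for Zbtb16 and 0.300 for Klf9. With terms for LG21 and teprenone 0 genes passed, with 855 at an unadjusted p under 0.05. No paired analysis was possible because the groups share 1 replicate number only.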

Other observations

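Lists that share other inputs with these genes gave a few further values. Ddit4 also responds to low oxygen and amino acid stress, and among 13 genes of those responses Ndrg1, a stress-induced gene of differentiated epithelium, stood at 11.51 in LG21+Asp, 11.61 in Tep+Asp, 11.64 in GA+Asp, 11.24 in LG21+GA and 11.16 in GA+GA. It was the 1 gene of the 13 with all 3 aspirin arrays above both others, a share near the 8.68% of genes above the median level. Pdk1, a kinase that limits pyruvate entry into mitochondria, was lowest in GA+GA at 8.18 and lay between 8.51 and 8.56 on the other arrays. Asns, the asparagine synthetase gene, was highest in GA+Asp at 11.81, the array in which Ddit4 was highest too. GA+Asp was strictly highest in 4 of the 13 genes, a share near the 33.6% of genes above the median level. The stress transcription factor gene Atf4 ranged from 8.46 to 8.49.

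Among 10 measured p53 targets, the pathway that also drives Cdkn1a, 9 were above 0 with aspirin alone, with a median of 0.07 and 0 at least 0.32 apart. In that pair 42.4% of all genes and 58.3% of genes above the median level were above 0, the latter 82.1% with median centring. Trp53inp1 was highest in Tep+Asp at 9.57, against 9.31 in GA+GA. Proliferation genes ran the other way: 13 of 14 were below 0 with aspirin alone and 1 was equal, with a median of -0.20. Below 0 in that pair were 31.4% of all genes and 23.5% of genes above the median level. GA+GA was strictly highest in 13 of the 14, against 11.7% of all genes and 11.8% of genes above the median level. Among 9 genes of sulfation and estrogen response, Sult1e1 included, the median difference with aspirin alone was 0.01, with Sult1b1 at -0.20 and Sult1a1 at 0.10.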
